A study of Mus musculus with 8 samples.

Results

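10 genes of the osteoclast lineage were followed in RNA sequencing (RNA-seq) of bone marrow B cells from ovariectomized mice (OVX) and sham-operated mice (Sham), with 3 libraries per group. The genes are Csf1r, Tnfrsf11a, Nfatc1, Acp5, Ctsk, Dcstamp, Ocstamp, Oscar, Calcr and Atp6v0d2, chosen by name as genes of osteoclast precursors and osteoclasts, and all 10 were found among the 54532 Ensembl genes of the count table. Removal of the ovaries serves as a surgical model of estrogen loss after menopause, and the cells of both groups were isolated from marrow with magnetic beads. No allele, transgene or drug is named for either group. The sample labels give no strain, age, time after surgery or pooling of mice for these 6 libraries, so p-values measure the spread between libraries, which may be technical in part. The HIF-1α ChIP-seq library of the series and its input were not analysed here.

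Osteoclasts are the multinucleated cells that resorb bone, and they arise from monocyte and macrophage precursors, not from B cells. Precursors carry the M-CSF receptor Csf1r and the receptor RANK (Tnfrsf11a). When RANKL binds RANK, the adaptor TRAF6 and calcium signals through ITAM adaptors switch on NFATc1, which in turn drives the genes of cell fusion and of acid and protease secretion. Marrow B cells are among the cells that can make RANKL, and OPG is the soluble decoy that binds it. The comparison here asks which osteoclast genes were read in the B cell fraction at all and whether they differed between OVX and Sham.

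Each library held between 23838775 and 33136701 counted reads, and no library was a repeat count of another. All 8 B cell marker genes, Cd79a and Pax5 among them, were read in every library, and their summed level ran from 7248 to 8383 CPM, that is, reads scaled to the library total with TMM factors. Transcripts used as markers of other marrow cells were present too and varied more. The 10 macrophage genes, C1qa and Cd163 among them, were all read in every library, with sums from 585 to 2300 CPM in Sham and from 579 to 1984 CPM in OVX. The 8 monocyte genes were all read in every library and summed to 496 to 1414 CPM in Sham and 244 to 718 CPM in OVX. Most of this sum was Lyz2, at 394 to 1070 CPM in Sham and 182 to 576 CPM in OVX. Lyz2 was highest in Sham replicate 3 and then in OVX replicate 1, the order of the neutrophil sum. Whether its reads came from monocytes was not tested. Of the 8 monocyte genes, 5 were highest in Sham replicate 3, whereas Cd14 and Fcgr1 were highest in Sham replicate 2 and OVX replicate 3. The 10 neutrophil genes were likewise all read and summed to 2345 to 8465 CPM in Sham and 1044 to 3703 CPM in OVX. Of 6 plasmacytoid dendritic cell genes, only Cd209d had a library without a read, and the sums were 15.8 to 39.4 CPM in Sham and 12.6 to 21.3 CPM in OVX. In this list 4 genes were highest in Sham replicate 3, whereas Pacsin1 was highest in Sham replicate 2 and Cox6a2 in Sham replicate 1. Of 8 stroma and osteoblast genes, only Sp7, the osteoblast transcription factor, was at 0 in any library, and the sums were 43.4 to 51.8 CPM in Sham and 41.8 to 79.2 CPM in OVX.

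The 10 genes split into 6 that were read in all 6 libraries and 4 that were close to absent. Csf1r, Nfatc1 and Acp5 had at least 803 reads in each library. Tnfrsf11a, Ctsk and Atp6v0d2 had between 6 and 156 reads. Dcstamp, Ocstamp, Oscar and Calcr had at most 11 reads in any library and did not pass the filter on low counts, so they were not tested in the model across genes. Reads were not divided by transcript length, so they give no order of abundance between the genes.

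**Figure D1:**
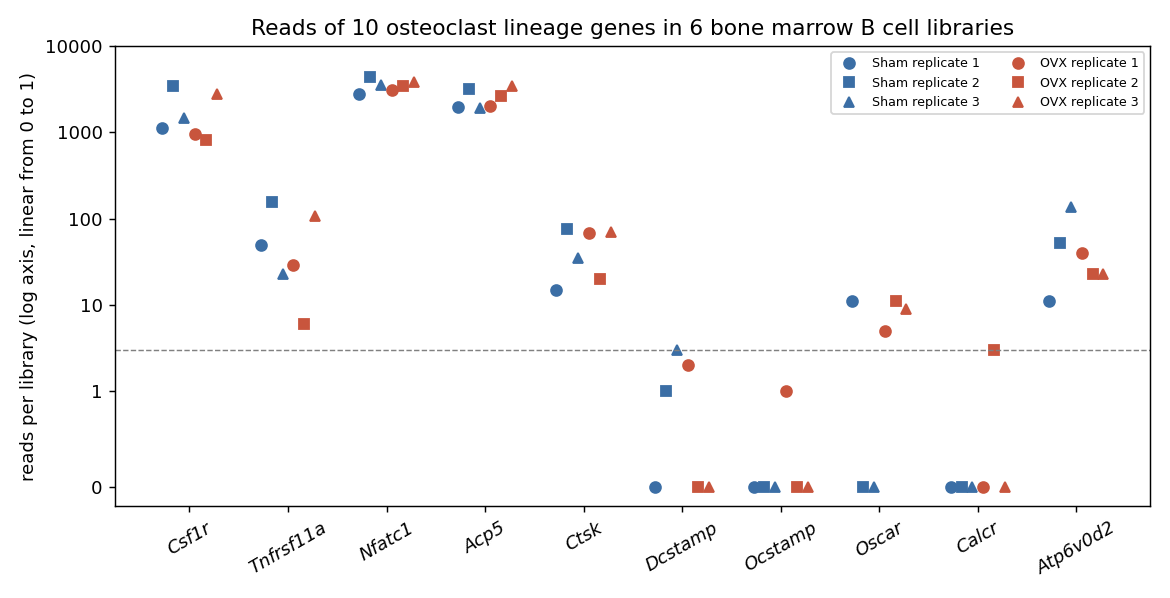
Reads of each of the 10 genes (horizontal axis) in each library (vertical axis, reads on a log axis that is linear from 0 to 1), Sham in blue and OVX in red, with a dashed line at 3 reads. Csf1r, Nfatc1 and Acp5 lie between 803 and 4402 reads, whereas Dcstamp, Ocstamp and Calcr lie at 0 to 3 reads.

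Dcstamp and Ocstamp encode the membrane proteins that precursors need to fuse into a multinucleated osteoclast. Dcstamp was counted with 0, 1 and 3 reads across Sham replicates 1 to 3 and with 2, 0 and 0 reads across OVX replicates 1 to 3. A single read of Ocstamp was counted, in OVX replicate 1. Calcr, the receptor through which calcitonin halts resorption and a late osteoclast marker, had 3 reads in OVX replicate 2 and 0 in each of the other 5 libraries. A count of 0 was taken to allow up to 3 reads, which is 0.0907 to 0.127 CPM depending on the depth of the library, and this limit covers counting error only. All values of these 3 genes lie at or below 3 reads, so no fold change is given and a difference between OVX and Sham was not detectable at this depth.

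Oscar encodes a collagen-binding receptor that signals through the ITAM adaptor FcRγ and costimulates NFATc1. It had 11, 0 and 0 reads across Sham replicates 1 to 3 and 5, 11 and 9 reads across OVX replicates 1 to 3. Reads of Oscar were thus found in every OVX library and in 1 Sham library, whose count equaled the highest OVX count. Log2 CPM of Oscar gave p = 0.4 in a two-sided exact permutation test, in which 0.1 is the smallest p possible with 3 libraries per group. Sham replicate 2, without any read of Oscar, held the highest level of the precursor receptors Csf1r and Tnfrsf11a.

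Csf1r, the receptor tyrosine kinase for M-CSF and IL-34 that monocytes, macrophages and osteoclast precursors carry, had 47.6, 120 and 58.5 CPM across Sham replicates 1 to 3 and 39.0, 28.3 and 84.1 CPM across OVX replicates 1 to 3. Sham replicate 2 and OVX replicate 3 stood above the other 4 libraries, and the groups overlapped. The mean and SD were 50.5 ± 29.6 CPM for OVX and 75.3 ± 39.0 CPM for Sham (n = 3 each). The log2 difference, OVX minus Sham, was -0.58 (standard error, SE, 0.47, 95% interval -1.69 to 0.53, edgeR's adjusted p = 0.811). It was -0.07 without Sham replicate 2 and -1.16 without OVX replicate 3.

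Tnfrsf11a encodes RANK, the receptor through which RANKL starts osteoclast differentiation. It was counted with 49, 156 and 23 reads across Sham replicates 1 to 3 and with 29, 6 and 106 reads across OVX replicates 1 to 3. As for Csf1r, Sham replicate 2 and OVX replicate 3 were highest and OVX replicate 2 was lowest, and the groups overlapped. The highest CPM was 25.9 times the lowest, against a median of 1.43 times over the 15305 genes tested. The 6 reads of OVX replicate 2 have an exact Poisson interval of 2.20 to 13.1 reads, below the interval of every other library. The mean and SD were 1.53 ± 1.53 CPM for OVX and 2.83 ± 2.38 CPM for Sham (n = 3 each), with a log2 difference of -0.87 (SE 0.91, 95% interval -3.01 to 1.26, edgeR's adjusted p = 0.825). Without Sham replicate 2 the value turned to 0.05.

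Both receptors had their 2 highest levels in the same libraries as the macrophage genes. Acp5 had its 2 highest levels there too, over a narrower range of 1.46-fold. The macrophage sum was 2300 CPM in Sham replicate 2 and 1984 CPM in OVX replicate 3, against 579 to 1108 CPM in the other 4 libraries, and 9 of the 10 macrophage genes had their 2 highest levels in these 2 libraries. Per 1000 reads of the macrophage genes there were 43.0, 52.1 and 99.97 reads of Csf1r across Sham replicates 1 to 3 and 67.3, 42.2 and 42.4 across OVX replicates 1 to 3. This ratio thus varied 2.37-fold while Csf1r itself varied 4.23-fold. The 2 highest values of the ratio were in Sham replicate 3 and OVX replicate 1. These held the 2 lowest macrophage sums, 585 and 579 CPM, and also the most neutrophil transcripts. Set against 1000 reads of the monocyte genes, mostly reads of Lyz2, Csf1r ran from 41.4 reads in Sham replicate 3 to 214 in OVX replicate 3. This 5.17-fold range is wider than that of Csf1r itself. For Tnfrsf11a the ratio to the macrophage genes was 1.87, 2.39 and 1.58 per 1000 reads in Sham. In OVX it was 2.04, 0.315 and 1.62, so only OVX replicate 2 lay apart. In bulk RNA, fewer cells of a type and less RNA per cell cannot be told apart, and the part of macrophage transcripts in these values was not tested.

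The transcription factor NFATc1 and the phosphatase TRAP are hallmarks of the osteoclast, yet both were read at a steady level in all 6 libraries. Nfatc1, which also acts downstream of the antigen receptor in lymphocytes, had 116, 155 and 140 CPM across Sham replicates 1 to 3 and 125, 122 and 116 CPM across OVX replicates 1 to 3. The OVX libraries lay close together and within the range of Sham. The mean and SD were 121 ± 4.63 CPM for OVX and 137 ± 19.6 CPM for Sham (n = 3 each), a log2 difference of -0.18 (SE 0.11, 95% interval -0.43 to 0.07, edgeR's adjusted p = 0.811). The fitted variation between replicates was 11.1% of the mean for Nfatc1, against a median of 16.6% over all genes tested and 75.9% for Tnfrsf11a.

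Acp5, which encodes tartrate-resistant acid phosphatase (TRAP), the enzyme stained to count osteoclasts, had 82.2, 111 and 76.3 CPM across Sham replicates 1 to 3 and 82.4, 92.8 and 103 CPM across OVX replicates 1 to 3. The groups overlapped throughout. The mean and SD were 92.8 ± 10.4 CPM for OVX and 89.9 ± 18.6 CPM for Sham (n = 3 each), and the log2 difference was 0.05 (SE 0.15, 95% interval -0.31 to 0.40, edgeR's adjusted p = 0.943). Its direction is not settled, as it turned to -0.067 when Sham replicate 3 was left out, to -0.036 for OVX replicate 3, to -0.017 for Sham replicate 1 and to -0.057 with scaling on the B cell genes. Per 1000 reads of the B cell genes, Acp5 had between 10.5 and 14.6 reads and Nfatc1 between 14.5 and 20.4 reads in the 6 libraries. Per 1000 reads of the macrophage genes, the same genes ranged more widely, from 48.3 to 142 for Acp5 and from 58.5 to 239 for Nfatc1. The macrophage sum itself varied 3.97-fold and the B cell sum 1.16-fold, so any gene of narrow range gives this contrast. The cell type that the reads of Acp5 and Nfatc1 came from was not tested.

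**Figure D2:**
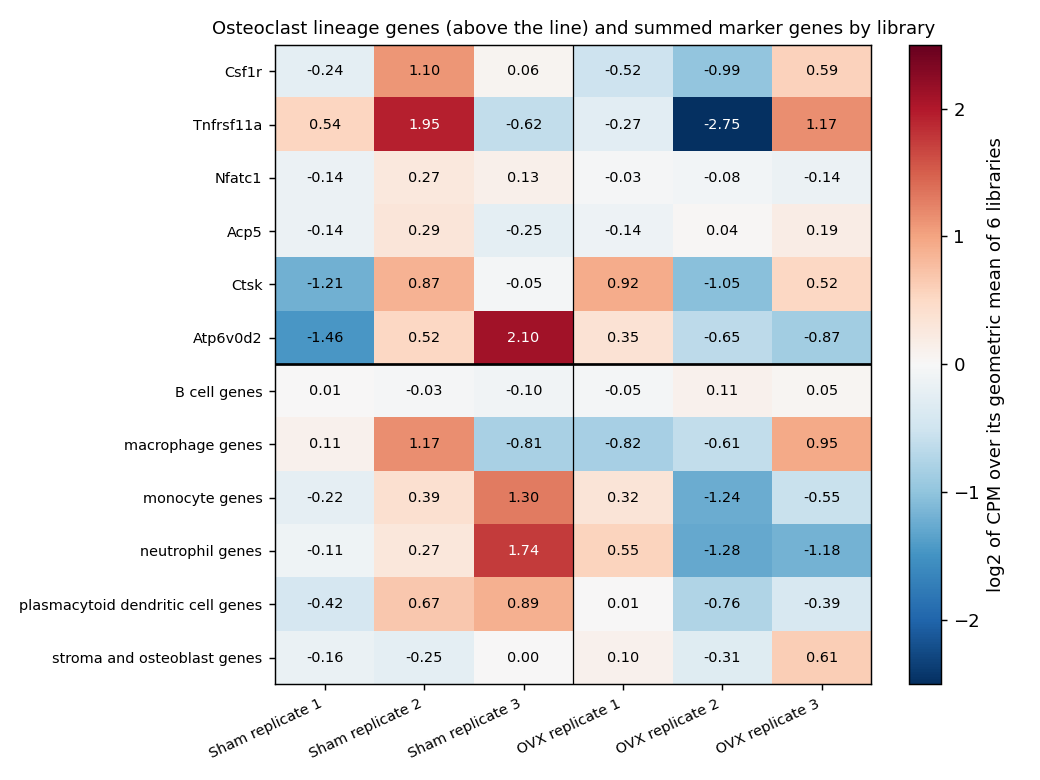
Level of the 6 tested osteoclast lineage genes and summed level of 6 marker lists in each library, as log2 of CPM over the geometric mean of the 6 libraries (red above, blue below). Csf1r, Tnfrsf11a and, over a narrower range, Acp5 are highest in Sham replicate 2 and OVX replicate 3, as the macrophage genes are. Atp6v0d2 is highest in Sham replicate 3, as the sums of the neutrophil, monocyte and plasmacytoid dendritic cell genes are, though not every gene of the last 2 lists. Nfatc1, Acp5 and the B cell genes lie at most 0.29 from their mean.

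Ctsk, the cathepsin that digests bone collagen, and Atp6v0d2, a subunit of the proton pump that acidifies the resorption pit and a factor in precursor fusion, were read sparsely. Ctsk had 15, 76 and 35 reads across Sham replicates 1 to 3 and 68, 20 and 69 reads across OVX replicates 1 to 3. High and low libraries occurred in both groups, with the highest CPM in OVX replicate 1. The mean and SD were 1.85 ± 1.05 CPM for OVX and 1.57 ± 1.03 CPM for Sham (n = 3 each), a log2 difference of 0.22 (SE 0.62, 95% interval -1.24 to 1.69, edgeR's adjusted p = 0.928). Leaving out Sham replicate 1 turned it to -0.15, leaving out OVX replicate 1 to -0.17, and leaving out Sham replicate 2 raised it to 0.85. Per 1000 reads of the macrophage genes, Ctsk had between 0.571 and 4.78 reads, which is a wider spread than its own 4.37-fold range in CPM.

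Atp6v0d2 had 11, 52 and 136 reads across Sham replicates 1 to 3 and 40, 23 and 23 reads across OVX replicates 1 to 3. Both the lowest and the highest count were in Sham, so all OVX libraries lay within the range of Sham. The mean and SD were 1.04 ± 0.508 CPM for OVX and 2.59 ± 2.59 CPM for Sham (n = 3 each). The log2 difference of -1.32 (SE 0.80, 95% interval -3.19 to 0.55, edgeR's adjusted p = 0.811) was the largest in size among the 6 genes and rested on Sham replicate 3, without which it was -0.17. That library also held the highest sums of the monocyte genes (1414 CPM), neutrophil genes (8465 CPM) and plasmacytoid dendritic cell genes (39.4 CPM). Per 1000 reads of the neutrophil genes, Atp6v0d2 had 0.198 reads in Sham replicate 1 and 0.440 to 0.777 in the other 5 libraries. Per 1000 reads of the monocyte genes, mostly reads of Lyz2, Atp6v0d2 had 0.936 to 3.87 reads, and the part of these cell types was not tested. Its paralog Atp6v0d1, which serves proton pumps in most cells, was read at 93.8 ± 8.60 CPM in OVX and 93.3 ± 6.61 CPM in Sham (SD, n = 3 per group).

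**Figure D3:**
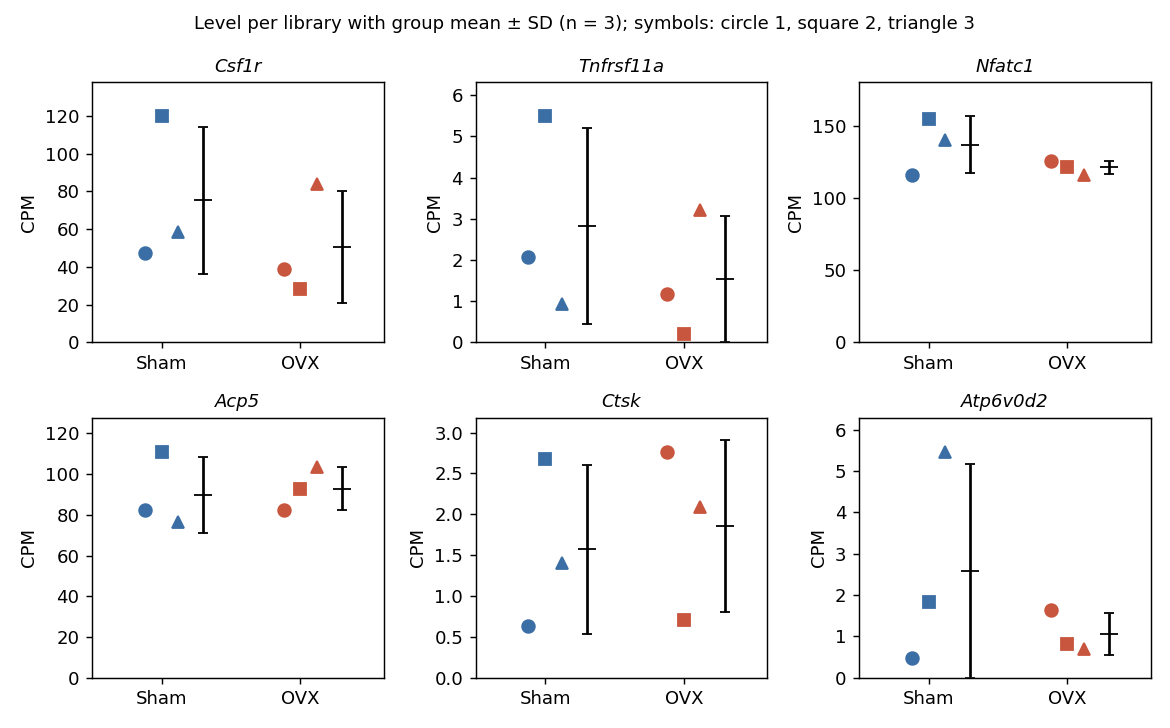
CPM of the 6 tested genes in each Sham library (blue) and OVX library (red), with circle, square and triangle for replicates 1, 2 and 3 and black bars for the mean ± SD (n = 3). The groups overlap for every gene shown, with OVX libraries of Nfatc1 between 116 and 125 CPM and Sham libraries of Atp6v0d2 between 0.464 and 5.47 CPM.

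None of the 6 genes was called, which required a Benjamini-Hochberg p below 0.05 together with a change of 1.6-fold or more, where 0% of the 15305 genes tested were called in either direction. At an unadjusted p-value under 0.05 there was again none of the 6, beside 3.75% of all genes, and DESeq2 gave 0 of the 10. None of the 6 had all OVX libraries above all Sham libraries or below them, where 4.33% of all genes lay entirely above and 4.12% entirely below. Of the 6 genes 4 had a negative log2 difference and 2 a positive one, with a median of -0.38 against -0.01 over all genes tested. Without Sham replicate 2 this median was -0.01 and without OVX replicate 3 it was -0.62. Leaving out Sham replicate 1 put Nfatc1 and Atp6v0d2 at an unadjusted p-value under 0.05, and leaving out OVX replicate 3 did so for Csf1r, with no call in either case. The 95% intervals left room for changes of more than 1.6-fold in either direction for Ctsk and Tnfrsf11a, whereas those of Nfatc1 and Acp5 did not reach that size.

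**Figure D4:**
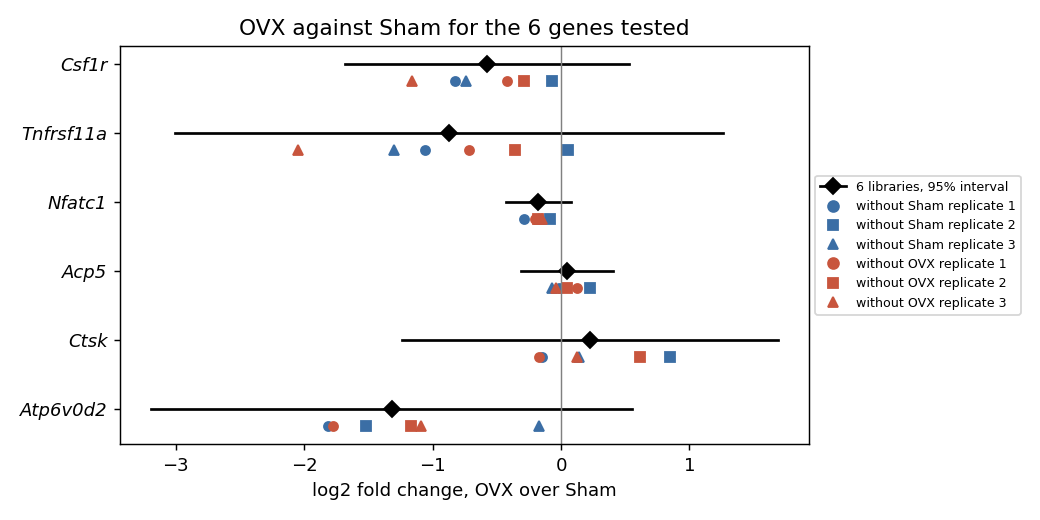
Log2 fold change of OVX over Sham for the 6 tested genes (black diamonds with 95% intervals from edgeR's quasi-likelihood fit) and, beneath each, the value when 1 library is left out. Every interval includes 0, and the value of Atp6v0d2 moves from -1.32 to -0.17 without Sham replicate 3.

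Sequences upstream of the annotated starts are shown for Acp5, Ctsk and Tnfrsf11a, since these genes stand for a steady, a sparse and a strongly varying read count in the same libraries. RefSeq windows (GRCm38.p6, which is mm10) were used for 5 of the 10 genes. Acp5 (chromosome 9, 22126727 to 22135746) has 3 annotated starts, and counts per gene do not tell which of them was used. Capitals mark the letters ACGTG or GCGTG on either strand, the core that the study looked for as a hypoxia response element.
Acp5 start 1, chr9:22135747-22135996, minus strand: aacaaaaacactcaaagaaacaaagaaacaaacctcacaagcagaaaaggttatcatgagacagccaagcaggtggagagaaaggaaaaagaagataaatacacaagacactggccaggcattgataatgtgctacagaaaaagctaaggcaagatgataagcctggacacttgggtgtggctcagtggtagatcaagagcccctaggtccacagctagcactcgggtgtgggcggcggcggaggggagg
Acp5 start 2, chr9:22131866-22132115, minus strand: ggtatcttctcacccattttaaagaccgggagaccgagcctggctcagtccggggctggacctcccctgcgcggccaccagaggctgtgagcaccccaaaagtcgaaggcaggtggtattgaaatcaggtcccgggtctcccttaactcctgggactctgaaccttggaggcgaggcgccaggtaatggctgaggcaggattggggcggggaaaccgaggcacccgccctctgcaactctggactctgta
Acp5 start 3, chr9:22130599-22130848, minus strand: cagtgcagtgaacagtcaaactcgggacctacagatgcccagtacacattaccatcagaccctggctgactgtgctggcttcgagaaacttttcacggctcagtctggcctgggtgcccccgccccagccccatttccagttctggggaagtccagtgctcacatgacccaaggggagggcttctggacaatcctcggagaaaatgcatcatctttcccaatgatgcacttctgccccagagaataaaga
Ctsk, chr3:95498960-95499209, plus strand: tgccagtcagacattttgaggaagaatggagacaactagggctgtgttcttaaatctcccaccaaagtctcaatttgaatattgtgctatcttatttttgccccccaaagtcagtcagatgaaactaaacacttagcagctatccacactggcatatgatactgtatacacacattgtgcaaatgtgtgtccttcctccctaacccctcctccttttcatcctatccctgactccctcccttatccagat
Tnfrsf11a, chr1:105780473-105780672, plus strand: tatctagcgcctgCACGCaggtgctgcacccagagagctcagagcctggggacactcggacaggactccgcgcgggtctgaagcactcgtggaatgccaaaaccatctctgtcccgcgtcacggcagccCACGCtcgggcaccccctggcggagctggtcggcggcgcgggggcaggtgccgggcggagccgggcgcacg

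The core was found 2 times in the 200 bases of Tnfrsf11a and in none of the other 4 windows shown, and 38.6% of 32851 RefSeq windows upstream of 27025 genes hold it, each read over 250 bases and so longer than the stretch shown for Tnfrsf11a. The Ctsk window (ahead of the gene at chromosome 3, 95499210 to 95509387) is 43.2% G or C with 0 CpG dinucleotides, whereas that of Tnfrsf11a (gene at chromosome 1, 105780673 to 105849444) is 71.0% with 22 CpG. The 3 windows of Acp5 are 48.0%, 61.2% and 54.4% G or C, against a median of 52.4% over all windows. A match describes letters only, and its absence says nothing of a factor outside these windows.

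Acp5 and Ctsk are also the members that the study measured by RT-qPCR as Trap and Cathk, in bone and not in isolated B cells. The primers listed for them are shown because they are directed at the same genes in another assay and another tissue, whose values are not used here.
Trap forward: gcgctagactccgagaacat
Trap reverse: tggccacttactacctgaccctt
Cathk forward: agcagaacggaggcattgactc
Cathk reverse: ccctctgcatttagctgcctttg

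The ligands and the decoy that act on these receptors were mostly sparse. Tnfsf11 (RANKL) had 10, 44 and 9 reads across Sham replicates 1 to 3 and 9, 3 and 19 reads across OVX replicates 1 to 3. Its level was 0.349 ± 0.235 CPM for OVX and 0.777 ± 0.668 CPM for Sham (SD, n = 3 each). Its groups overlapped, and its log2 difference was -1.15 (SE 0.76, edgeR's adjusted p = 0.811). The higher Sham mean rested on Sham replicate 2, at 1.55 CPM against 0.422 and 0.362 CPM in Sham replicates 1 and 3. The study lists Tnfsf11 among the genes upregulated after OVX, from its RNA-seq of Sham and OVX marrow B cells. The sign found here for the same comparison, with n = 3 per group, was the opposite, and the reason was not tested. Other evidence in the study includes RNA-seq and RT-qPCR of B cells in hypoxic culture, HIF-1α ChIP at the promoter and RANKL protein. None of it was analysed here. Tnfrsf11b, the decoy receptor OPG, had 0 reads in all 6 libraries. Csf1 (M-CSF) had 11.7 ± 1.22 CPM in OVX and 12.9 ± 3.94 CPM for Sham (SD, n = 3 each), a log2 difference of -0.14 (SE 0.22, edgeR's adjusted p = 0.878). Il34, the other ligand of Csf1r, had at most 5 reads in a library and was not tested.

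Among 16 genes of RANK and ITAM signaling, all were tested and none was called, with 7 positive and 9 negative log2 differences and a median of -0.01. At an unadjusted p-value under 0.05, 1 lay higher (1.47% of all genes did) and 1 lower (2.28% of all genes). The higher gene was Traf6, the adaptor of RANK, which had 130, 115 and 124 CPM across Sham replicates 1 to 3 and 143, 154 and 149 CPM across OVX replicates 1 to 3. All OVX libraries of Traf6 lay above all Sham libraries, as those of 4.33% of all genes did, with a log2 difference of 0.28 (SE 0.07, edgeR's adjusted p = 0.811). The lower gene was Trem2, a myeloid receptor that signals through DAP12, with 74, 163 and 125 reads across Sham replicates 1 to 3 and 57, 34 and 84 reads across OVX replicates 1 to 3. All OVX libraries of Trem2 lay below all Sham libraries in CPM, as those of 4.12% of all genes did. Its log2 difference was -1.19 (SE 0.36, edgeR's adjusted p = 0.811). In the same fit all 8 monocyte, 10 neutrophil and 10 macrophage genes had negative values, with medians of -0.98, -1.26 and -0.30. All 5 plasmacytoid dendritic cell genes tested did too, with a median of -1.19. None of these was called, and of the 15305 genes tested 7934 were negative and 7371 positive. Of the stroma and osteoblast genes tested, 4 were positive and 2 negative, and of the B cell genes 6 and 2. The part of these cell types in Trem2 and the other myeloid genes named here was not tested. Fcer1g, the FcRγ adaptor through which OSCAR signals, had 36.1 ± 14.9 CPM in OVX and 60.5 ± 21.4 CPM in Sham (SD, n = 3 per group), with overlap.

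Of the 8 lineage transcription factors tested, 1 had a positive and 7 a negative log2 difference, with a median of -0.45, and none was called. At an unadjusted p-value under 0.05, 1 lay lower (2.28% of all genes did) and none higher. This was Prdm1 (Blimp-1), which silences repressors of osteoclast formation and also drives plasma cell differentiation. Prdm1 had 81, 269 and 164 reads across Sham replicates 1 to 3 and 86, 109 and 95 reads across OVX replicates 1 to 3. Its groups overlapped, and its log2 difference was -0.93 (SE 0.36, edgeR's adjusted p = 0.811). Tfec, a relative of Mitf found in myeloid cells, had a log2 difference of -0.85 (SE 0.45).

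The 12 genes of the resorption machinery were all read and tested, with 7 positive and 5 negative log2 differences, a median of 0.02, no call and none at an unadjusted p-value under 0.05. Mmp9, a protease of osteoclasts and also of neutrophil granules, had 68.4, 101 and 311 CPM across Sham replicates 1 to 3 and 144, 36.8 and 31.0 CPM across OVX replicates 1 to 3. Its highest library was Sham replicate 3 and its second highest OVX replicate 1, as for the neutrophil genes, and its log2 difference was -1.18 (SE 0.74). Src, the kinase needed for the ruffled border, had a log2 difference of 0.59 (SE 0.31) and was highest in OVX replicate 3.

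Relatives of the 10 genes were listed as a reference. They are not free of the macrophage pattern, as Acp2, Ctss, Ctsb and Ctsl were also highest in Sham replicate 2 and OVX replicate 3. Of 11 such genes, 2 had a positive and 9 a negative log2 difference, with a median of -0.20 and no call. At an unadjusted p-value under 0.05, 1 lay lower (2.28% of all genes did) and none higher. This was Flt3, a receptor kinase related to Csf1r and carried by early lymphoid and dendritic progenitors. Flt3 had 5.69 ± 1.56 CPM in Sham and 3.63 ± 0.442 CPM in OVX (SD, n = 3 per group, edgeR's adjusted p = 0.811). All its OVX libraries lay below all Sham libraries, as those of 4.12% of all genes did. Nfatc2 had the largest log2 difference of this list in size, -0.73 (SE 0.47), with overlap between groups. Nfatc3 was read at 271 ± 17.4 CPM in OVX and 272 ± 1.63 CPM in Sham (SD, n = 3 per group).

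**Figure D5:**
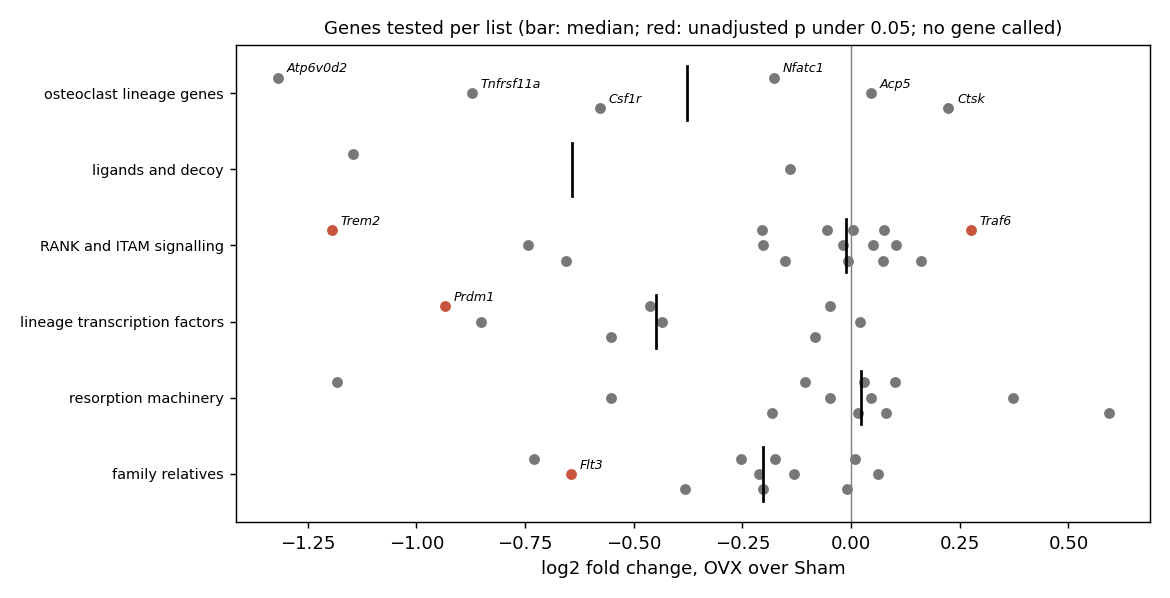
Log2 fold change of OVX over Sham (horizontal axis) for each tested gene of the 10 osteoclast lineage genes and of 5 related lists, with a bar at each median and red points at an unadjusted p-value under 0.05. Medians run from -0.64 for the ligands and decoy, of which 2 genes were tested, to 0.02 for the resorption machinery.

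The genes whose pattern over the 6 libraries was most like that of the 2 members with the highest mean CPM were listed as a description. For Nfatc1 these were Myo1g, Dgke and Ighg2b, with Pearson's r of log2 CPM of 0.999, 0.997 and 0.995. For Acp5 they were Agpat3, Plxnb3 and Tgfbr2, with r of 0.993, 0.987 and 0.983. The points share depth and cell makeup, and with only 6 libraries 215 of the genes tested exceeded an r of 0.95 with Nfatc1 and 24 with Acp5.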

How the data were processed

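RNA-seq counts of 3 Sham and 3 OVX libraries were used, grouped by their sample titles. The values as deposited are counts, a whole number of reads for each Ensembl gene and library, and the authors had not normalized them. The submitters' processing notes name CASAVA, Bowtie 0.12.2 and mm10 with no role. The counting tool, annotation and strand setting are not given in the sources used here, so reads of overlapping or antisense genes could not be told apart.

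Symbols were matched for 54409 of 54532 identifiers. In R 4.3.3, genes were filtered with filterByExpr, scaled by TMM and compared with the quasi-likelihood test of edgeR 4.0.16, with Benjamini-Hochberg adjustment over 15305 genes. Standard errors were taken as the absolute log2 difference over the square root of F. Calls required an adjusted p below 0.05 together with a change of 1.6-fold or more. Log2 CPM used a prior count of 2. Total reads were 23838775 to 33136701 per library. Reads carry no molecular identifiers, so the Poisson intervals of read counts cover counting error only. The intervals of the log2 differences come from the quasi-likelihood fit and include the spread between libraries.

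Alternatives were DESeq2 1.42.0, other scalings, no filter, each library left out and a replicate block. The fits were tested on simulated data. The 10 genes and all lists were chosen with earlier results of these data known. Named are the 10 genes, the ligands and decoy, and in the other lists genes at an unadjusted p-value under 0.05, the 2 with the largest log2 fold change in size, and relatives as reference.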

Additional observations from a re-analysis of the deposited data

How the results depend on the processing

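No gene of the 15305, none of the 10 and none of the pathway lists was called in any alternative run, which were DESeq2, 3 other scalings, no filter on low counts, no fold threshold, the replicate block and each library left out, so the count was 0 throughout. Unadjusted p-values below 0.05 were found for 574 genes, and 206 with the replicate block, 1269 without the filter and 233 to 2698 when 1 library was left out, the last without Sham replicate 1. Libraries of the same replicate number did not deviate alike from their group means (correlations of deviations -0.410, -0.189 and -0.279 across genes). With so few libraries this cannot exclude a shared batch. The replicate block called 0 genes, as the main fit did. Scaling on the B cell genes moved the median over all genes by -0.10 on the log2 scale, and with it Acp5 was at -0.057. With 1 library left out, Acp5 ran from -0.067 to 0.23, Ctsk from -0.17 to 0.85, Tnfrsf11a from -2.04 to 0.052, Csf1r from -1.16 to -0.07, Nfatc1 from -0.29 to -0.08 and Atp6v0d2 from -1.81 to -0.17. The causes were not tested. The number of the 10 genes at 1 CPM or more in every library was 3 with TMM, with library size only and with scaling on the B cell genes. Depth limits Dcstamp, Ocstamp, Oscar and Calcr, which were below the filter on low counts and entered the fits across genes mainly where that filter was dropped, without a call.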
